A study of Homo sapiens with 6 samples.

Results

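The genes described here form the NRF2, glutathione and redox defence system: the transcription factor NRF2 (gene NFE2L2) with its sensor and partner, the enzymes that make and use glutathione, the thioredoxin and peroxiredoxin enzymes, superoxide dismutases and catalase, the enzymes that supply NADPH, and genes of haem, iron and quinone handling. The members were 38 genes named by symbol, and 37 of them had a row among the 15953 genes of the expression table. The remaining gene, AKR1C2, had no row. RNA-seq was performed in 6 libraries of EJ, a human cell line established from bladder cancer. The shSTIL group (3 libraries) came from cells in which a lentiviral short hairpin RNA stably lowered STIL, a centriole assembly protein, and the shNC group (3 libraries) from cells with the negative control vector. No age, time point or further agent was given for either group, and both carried a vector. The sources do not say how many hairpins or clones the stable cells represent, nor whether the 3 libraries of a group came from separate cultures, so the p-values below measure the spread between libraries, which may be technical. The column headings of the deposited tables write si where the sample labels write sh, and the labels were followed.

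NRF2 is held at a low level by KEAP1, which presents it to a CUL3 ubiquitin ligase for degradation. When oxidants or electrophiles modify KEAP1, NRF2 accumulates, pairs with a small MAF protein and binds antioxidant response elements near genes such as NQO1, HMOX1, GCLM, TXNRD1 and SRXN1. Peroxides are then reduced with electrons that pass from NADPH through glutathione or thioredoxin. Activating mutations of this pathway are known in a subset of bladder carcinomas. The measurements here are of mRNA only, while much of the control of NRF2 acts on its protein.

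STIL, the targeted gene (chr1:47250139-47314147, minus strand, GRCh38), was measured at 5.98, 6.10 and 6.01 log2 CPM in the shNC libraries and at 4.05, 4.06 and 4.01 log2 CPM in the shSTIL libraries. CPM are read counts scaled to a common library size, and log2 CPM is the scale of every level below, always listed in the order of replicates 1, 2 and 3. STIL fell by 1.99 on the log2 scale (SE 0.05, limma adjusted p = 6.1e-12), which left 25.2% of the control level. The libraries held 16214772 to 16431243 reads in the shNC group and 16734469 to 16901634 reads in the shSTIL group. Of 35 marker genes checked for the labelled cell type, 26 had a row. KRT18 (9.32 and 9.27 log2 CPM on average in shNC and shSTIL), KRT8 (8.56 and 7.86), KRT7 (6.50 and 7.0) and VIM (10.52 and 9.84) were high. The urothelial markers KRT5, KRT20 and UPK2 and the epithelial cadherin CDH1 ranged from -3.05, the lowest value of the table, to -1.21 log2 CPM. The urothelial factors PPARG (4.28 and 4.53 log2 CPM on average in shNC and shSTIL) and FOXA1 (3.33 and 2.80) were expressed. The factors GATA3 (-0.71 and -1.12) and TP63 (-0.22 and -0.33), the epithelial marker EPCAM (0.16 and 0.17) and the uroplakin UPK1A (1.02 and 0.43) were low. KRT14, KRT19 and UPK3A had no row. Among leukocyte, endothelial and fibroblast markers, PTPRC, CD3E, COL1A2, DCN and LUM had no row, and the 6 leukocyte and endothelial markers with a row ranged from -3.05 to -0.39 log2 CPM over all libraries. COL1A1, a fibroblast marker, ranged from 0.42 to 1.93 log2 CPM. At a limma adjusted p below 0.01, 6 markers fell with STIL knockdown, by 1.19 on the log2 scale for FN1, 1.12 for UPK1B, 0.96 for COL1A1, 0.70 for KRT8, 0.68 for VIM and 0.53 for FOXA1. Of these 6, UPK1B was near the lowest values, with 20, 20 and 13 reads in controls and 5, 7 and 11 reads after knockdown. Another 2 rose, KRT7 by 0.49 and PPARG by 0.26, and 18, KRT18 among them, were not called. The part of these markers in the results below was not tested.

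After STIL knockdown, most redox defence transcripts fell. Of the 37 measured members, 26 were lower and 6 were higher in shSTIL cells at a limma adjusted p below 0.01, and 5 were not called. Across all 15953 genes 47.1% were called, 23.6% as lower and 23.5% as higher, against 70.3% lower and 16.2% higher among the members. The median log2 fold change was -0.34 over the measured members and 0.01 over all genes. The members were mostly well expressed: 33 of the 37 had a mean of at least 4 log2 CPM, and among the 8668 genes at that level 33.3% were lower and 34.0% higher. In a bulk sample, fewer cells of a type and less RNA per cell cannot be told apart, and every value is relative to the total of its library. The groups did not overlap for 35 of the 37 members, compared with 60.3% of all genes. Among the 11319 genes with a mean of at least 1 log2 CPM that share was 75.7%. Of the 35 members, 28 were lower and 7 higher, and AKR1C3 was among them only because 1 read stood for a slightly different log2 CPM in each library.

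**Figure D1:**
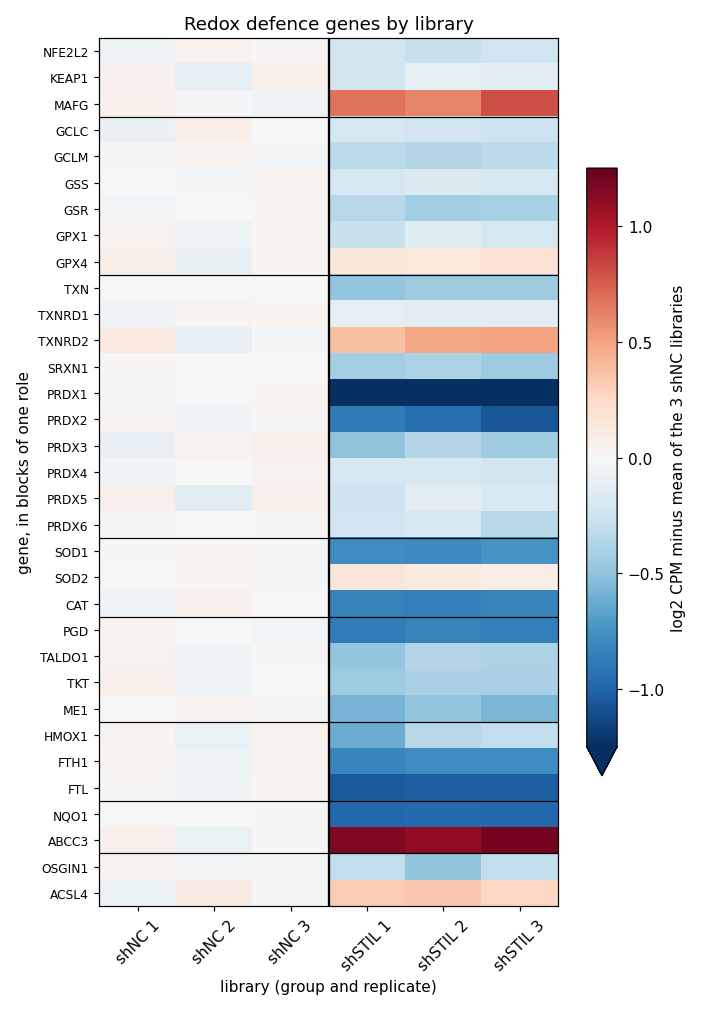
Levels of the 33 redox defence genes with a mean of at least 1 log2 CPM in each of the 6 libraries (columns), as the difference in log2 CPM from the mean of the 3 shNC libraries, with black lines between roles. Blue is lower and red is higher, the colour scale ends at -1.25 and 1.25, and PRDX1 at -2.11 lies beyond it. In each of the 3 shSTIL columns most rows are blue, with MAFG, TXNRD2, ABCC3, GPX4, SOD2 and ACSL4 in red.

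The sizes of these falls were spread widely. Among the 26 lower members, 6 fell by less than 0.25 on the log2 scale, 11 by 0.25 to 0.5, 7 by 0.5 to 1, and 2 by more than 1. Of the 6 higher members, 1 rose by more than 1. At or below a log2 fold change of -0.3 lay 51.4% of the members and 24.8% of all genes. The summed level of the 37 members was 10950 to 11250 CPM in the shNC libraries and 7833 to 7939 CPM in the shSTIL libraries, or 70.9% of the control sum. Without FTH1, FTL and PRDX1, the sum of the other 34 was still 83.9% of control, with no overlap between the groups.

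**Figure D2:**
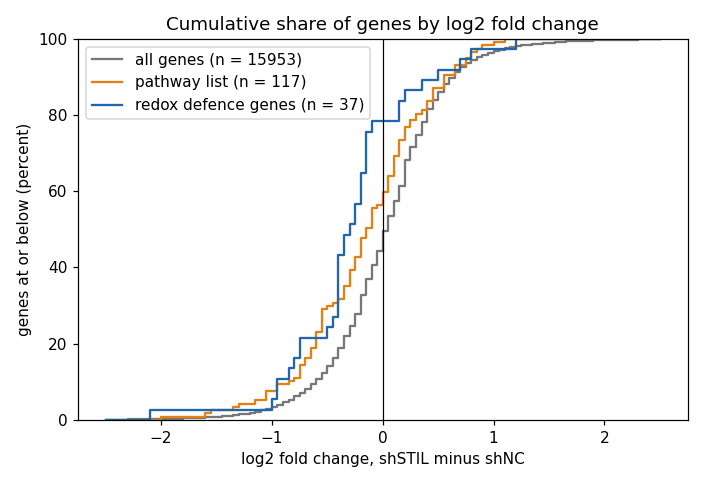
Cumulative share of genes (y axis, percent) at or below each log2 fold change of shSTIL minus shNC (x axis) for all 15953 genes, the 117 measured genes of a wider pathway list and the 37 measured redox defence genes. At -0.3 the lines stand at 24.8%, 39.3% and 51.4%, and the line of the redox defence genes lies above that of all genes from -1 to 0.6.

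Transcript length moved with direction in these libraries. Among genes with a mean of at least 4 log2 CPM, 43.9% of the 1539 whose longest coding transcript was under 2000 bases were lower and 20.9% higher, compared with 31.2% lower and 36.8% higher among the 6977 longer ones. Of the members, 15 were in the shorter class, with 14 lower and 1 higher (median log2 fold change -0.44, against -0.12 for all genes of that class). In the longer class were 18 members, with 12 lower and 5 higher (median -0.24, against 0.04). The median of the members was thus below that of all genes in both length classes, and the part of length in the result was not tested.

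The sensor and transcription factors moved in different directions. NFE2L2 (chr2:177227595-177392697, minus strand) was measured at 7.15, 7.25 and 7.23 log2 CPM in shNC cells and at 6.98, 6.94 and 6.96 log2 CPM in shSTIL cells. Every shSTIL library lay below every control, and the fall was 0.25 on the log2 scale (SE 0.04, limma adjusted p = 4.32e-05), or to 84.1% of control. KEAP1 (chr19:10486120-10503741, minus strand), the NRF2 inhibitor, stood at 5.60, 5.43 and 5.61 log2 CPM in controls and at 5.31, 5.42 and 5.41 after knockdown. Its highest shSTIL value was next to the lowest control value, and the difference of -0.16 (SE 0.06) was not called at a limma adjusted p of 0.0261. MAFG (chr17:81918270-81927714, minus strand), a small MAF partner of NRF2, was measured at 6.07, 5.98 and 5.94 log2 CPM in shNC and at 6.68, 6.61 and 6.80 in shSTIL libraries. MAFG thus rose 1.62-fold (log2 0.70, SE 0.05, limma adjusted p = 6.06e-08), with the groups well apart.

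The promoters of the members were searched for the core of the antioxidant response element, the binding motif of NRF2 with a small MAF protein, because these genes are grouped by that factor. The motif was TGACNNNGC on either strand, in RefSeq windows (GRCh38.p14) of 300 bases that hold each annotated start and the sequence before it. It shares its first letters with the AP-1 motif TGACTCA, which lies inside the ME1 match below. Windows were found for 28 of the 37 measured members, and 5 of these (17.9%) held a match, compared with 18.7% of the 12621 genes of the table that had a window. Among members with a window, 4 of the 19 lower and 0 of the 5 higher held one. No windows were found for GSS, GSR, PRDX1, PRDX6, SOD1, HMOX1, FTH1, AKR1B10 and ABCC3. One match of each gene that fell and both matches of KEAP1, which was not called, are shown, 5′ to 3′ on the strand of the gene, with the motif or its reverse complement in capitals. The second KEAP1 match has the same capital letters as that of GCLM.
GCLM, chr1:93909446-93909474, minus strand: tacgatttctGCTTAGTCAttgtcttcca
ME1, chr6:83431170-83431198, minus strand: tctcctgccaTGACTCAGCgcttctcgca
TXNRD1, chr12:104215670-104215698, plus strand: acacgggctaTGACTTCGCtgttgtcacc
PGD, chr1:10398853-10398881, plus strand: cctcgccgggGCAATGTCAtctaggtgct
KEAP1, chr19:10502807-10502835, minus strand: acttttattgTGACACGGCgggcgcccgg
KEAP1, chr19:10502784-10502812, minus strand: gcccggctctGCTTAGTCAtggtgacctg

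A match describes the letters of a window and not a bound site, and NQO1 and SRXN1, whose windows held no match, have these letters nowhere in those 300 bases, from which nothing follows about the factor.

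The genes of glutathione synthesis fell by small amounts. GCLC, the catalytic subunit of glutamate cysteine ligase, was at 4.92, 5.10 and 5.02 log2 CPM in controls and at 4.80, 4.79 and 4.75 after knockdown. GCLM, its modifier subunit and 1 of the promoters shown above, was at 5.87, 5.92 and 5.87 and then at 5.55, 5.52 and 5.56 log2 CPM. GSS, which completes the tripeptide, was at 7.45, 7.45 and 7.48 and then at 7.25, 7.29 and 7.26 log2 CPM. All 3 were lower in every shSTIL library, with log2 fold changes of -0.24 for GCLC (limma adjusted p = 0.00319), -0.34 for GCLM (limma adjusted p = 7.6e-06) and -0.20 for GSS (limma adjusted p = 0.00011).

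Recycling and use of glutathione were divided. GSR, the reductase that regenerates glutathione with NADPH, was at 6.07, 6.11 and 6.13 log2 CPM in shNC and at 5.76, 5.67 and 5.70 in shSTIL libraries, and fell by 0.40 (SE 0.04, limma adjusted p = 2.18e-06). GPX1, a cytosolic glutathione peroxidase, was at 8.07, 7.96 and 8.04 and then at 7.74, 7.87 and 7.80 log2 CPM, a fall of 0.22 (limma adjusted p = 0.000325). In the GPX1 transcript, 21.5% of the 50-base words occur in the annotated genes GPX1P1 and GPX1P2, neither of which had a row. The GPX1 counts were whole in every library, and reads from the shared stretches could come from any of these genes. GPX4, which reduces lipid hydroperoxides in membranes, went the other way, from 8.98, 8.81 and 8.93 to 9.05, 9.04 and 9.09 log2 CPM. Its groups were adjacent rather than far apart, with 1.11-fold higher values in shSTIL cells (log2 0.15, SE 0.04, limma adjusted p = 0.00651), and the call was lost when any 1 of the 6 libraries was left out (limma adjusted p of 0.0186 to 0.122). ACSL4, a fatty acid ligase that supplies the polyunsaturated lipids GPX4 protects, was at 7.54, 7.72 and 7.61 log2 CPM in controls and at 7.94, 7.96 and 7.88 after knockdown. It rose 1.24-fold (log2 0.30, SE 0.04, limma adjusted p = 4.14e-05).

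The thioredoxin system and the peroxiredoxins, which reduce hydrogen peroxide with electrons from thioredoxin, contained the member that fell most. PRDX1 (chr1:45511036-45523047, minus strand), a cytosolic peroxiredoxin, was at 9.18, 9.19 and 9.21 log2 CPM in the shNC libraries and at 7.05, 7.09 and 7.11 in the shSTIL libraries. In reads, this was 9276 to 9528 in controls and 2266 to 2349 after knockdown. PRDX1 fell by 2.11 on the log2 scale (SE 0.03, limma adjusted p = 6.64e-14), to 23.2% of control, and 0.169% of all genes had a log2 fold change at or below it. For comparison, the targeted gene STIL fell by 1.99.

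The other peroxiredoxins were all lower, by less. PRDX2 was at 6.02, 5.93 and 6.0 log2 CPM in controls and at 5.10, 5.04 and 4.92 after knockdown, a fall of 0.97 (SE 0.05, limma adjusted p = 4.42e-09). PRDX3, the mitochondrial form, was at 6.41, 6.56 and 6.58 and then at 6.02, 6.15 and 6.07 log2 CPM, a fall of 0.44. PRDX4, of the endoplasmic reticulum, was at 6.14, 6.19 and 6.23 and then at 5.98, 5.99 and 5.96 log2 CPM, a fall of 0.21. The groups did not overlap for any of the 6 peroxiredoxins. PRDX5 was at 7.48, 7.29 and 7.48 and then at 7.16, 7.27 and 7.22 log2 CPM, with shNC 2 next to shSTIL 2, a fall of 0.20 (limma adjusted p = 0.00392). PRDX6 was at 7.37, 7.40 and 7.41 and then at 7.15, 7.18 and 7.04 log2 CPM, a fall of 0.27. The sum over the 6 peroxiredoxins was 1138 to 1176 CPM in controls and 578 to 603 CPM in shSTIL libraries, or 50.9% of control. With PRDX1 left out it was 79.6% of control.

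TXN, the cytosolic thioredoxin, was at 7.81 log2 CPM in all 3 shNC libraries and at 7.33, 7.36 and 7.36 in the shSTIL libraries. It fell by 0.46 (SE 0.03, limma adjusted p = 2.32e-08). SRXN1, which repairs overoxidised peroxiredoxins, was at 7.50, 7.48 and 7.49 and then at 7.07, 7.10 and 7.04 log2 CPM, a fall of 0.42 (SE 0.03, limma adjusted p = 8.27e-08). An overlapping annotated gene, AL121758.1, shares 84.7% of the 50-base words of the SRXN1 transcript, so reads from the shared stretch could come from either gene.

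The cytosolic and mitochondrial thioredoxin reductases differed in direction. TXNRD1, the cytosolic enzyme, was at 10.19, 10.28 and 10.27 log2 CPM in controls and at 10.13, 10.11 and 10.10 after knockdown, a difference of -0.13 (SE 0.03, limma adjusted p = 0.00514). Under quantile normalization this difference was -0.02 and the TXNRD1 call was lost (limma adjusted p = 0.724, the highest of all alternatives). The lowest was a DESeq2 adjusted p of 9.73e-05. In all, the TXNRD1 call was lost in 8 of the 15 alternative fits, including 5 of the 6 that left out 1 library. TXNRD2, the mitochondrial enzyme, was at 4.74, 4.52 and 4.59 log2 CPM and then at 4.99, 5.10 and 5.12, and rose 1.37-fold (log2 0.46, SE 0.07, limma adjusted p = 4.94e-05).

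**Figure D3:**
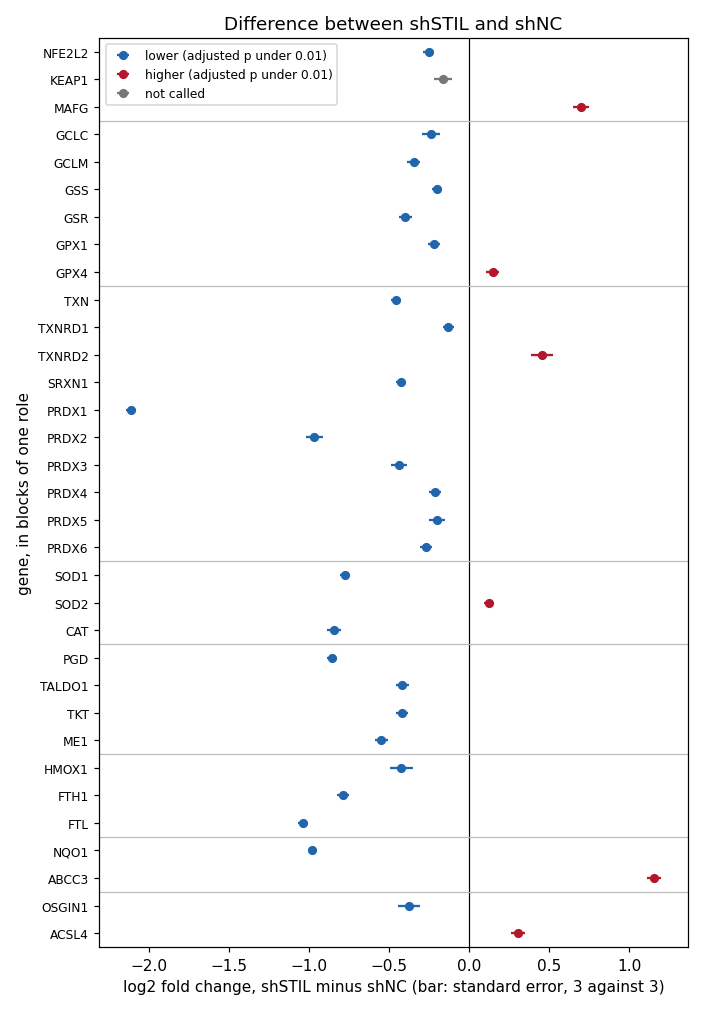
Log2 fold change of shSTIL minus shNC (x axis) for the 33 redox defence genes with a mean of at least 1 log2 CPM (y axis, in blocks of one role), with bars of 1 standard error from limma over 3 against 3 libraries. PRDX1 at -2.11 stands furthest to the left and ABCC3 at 1.16 furthest to the right, and KEAP1 is the gene drawn as not called.

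Superoxide dismutases turn superoxide into hydrogen peroxide, which catalase breaks down. SOD1, the cytosolic copper and zinc enzyme, was at 7.70, 7.73 and 7.69 log2 CPM in controls and at 6.93, 6.91 and 6.96 after knockdown, a fall of 0.77 (SE 0.03, limma adjusted p = 3.21e-10). CAT was at 6.02, 6.12 and 6.06 and then at 5.23, 5.22 and 5.24 log2 CPM, a fall of 0.84 (SE 0.04, limma adjusted p = 2.44e-09). Both were far below every control library, at 58.6% and 55.8% of control. SOD2, the mitochondrial manganese enzyme, was at 8.41, 8.44 and 8.39 log2 CPM in controls and at 8.57, 8.53 and 8.51 after knockdown. It was 1.09-fold higher (log2 0.12, SE 0.03, limma adjusted p = 0.00356), without overlap.

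All 4 members that feed the NADPH supply fell. PGD, 6-phosphogluconate dehydrogenase of the oxidative pentose phosphate pathway, was at 7.59, 7.56 and 7.52 log2 CPM in shNC and at 6.68, 6.72 and 6.70 in shSTIL libraries, a fall of 0.85 (SE 0.03, limma adjusted p = 1.5e-10). ME1, cytosolic malic enzyme, was at 6.63, 6.67 and 6.61 and then at 6.05, 6.15 and 6.06 log2 CPM, a fall of 0.55 (SE 0.04, limma adjusted p = 6.02e-08). The promoter windows of both genes held a match, as shown above. TKT, transketolase, was at 10.47, 10.36 and 10.40 log2 CPM in controls and between 9.97 and 10.01 in all shSTIL libraries, a fall of 0.42. TALDO1, transaldolase, was at 7.38, 7.28 and 7.35 and then at 6.86, 6.97 and 6.94 log2 CPM, a fall of 0.41. Transketolase and transaldolase form the non-oxidative branch of the pathway. The 4 genes together stood at 1758 to 1876 CPM in controls and at 1287 to 1329 CPM after knockdown, or 72.5% of control.

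Both ferritin chains, which store iron, were reduced. FTL (chr19:48965301-48966878, plus strand), the light chain, was at 10.89, 10.82 and 10.90 log2 CPM in controls and at 9.82, 9.84 and 9.84 after knockdown, a fall of 1.04 (SE 0.03, limma adjusted p = 3.28e-11) to 48.8% of control. FTH1 (chr11:61959718-61967660, minus strand), the heavy chain with ferroxidase activity, was at 10.75, 10.66 and 10.75 and then at 9.90, 9.95 and 9.95 log2 CPM, a fall of 0.79 (SE 0.04, limma adjusted p = 8.12e-10). Together they accounted for 3424 to 3635 CPM in controls and 1861 to 1903 CPM in shSTIL libraries, or 53.1% of control. Pseudogenes resemble both: 40.4% of the 50-base words of the FTH1 transcript and 18.3% of those of FTL occur in other annotated genes without a row. The FTH1 counts were fractional, so the split of such reads is uncertain. The FTL counts were whole in every library, and reads from its shared stretches could come from any of these genes.

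HMOX1, the inducible haem oxygenase that frees iron from haem, was at 6.06, 5.94 and 6.06 log2 CPM in controls and at 5.40, 5.68 and 5.71 after knockdown. The shSTIL 1 library was lower than the other shSTIL libraries, and the fall was 0.42 (SE 0.07, limma adjusted p = 0.000191).

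Of the genes for quinone and carbonyl reduction and for export, only 2 were both well expressed and called, in opposite directions. NQO1 (chr16:69706996-69726951, minus strand), the quinone reductase often used as a readout of NRF2, was at 9.37, 9.37 and 9.35 log2 CPM in shNC and at 8.38, 8.39 and 8.38 in shSTIL libraries. The libraries of each group were nearly equal, and NQO1 fell by 0.98 (SE 0.03, limma adjusted p = 1.29e-11) to 50.7% of control. ABCC3 (chr17:50634777-50692252, plus strand), an exporter of glucuronide and other organic anion conjugates, was at 6.44, 6.30 and 6.39 and then at 7.54, 7.49 and 7.57 log2 CPM. It was the member that rose most, 2.23-fold (log2 1.16, SE 0.04, limma adjusted p = 8.98e-11). ABCC2, a related exporter, was near the lowest values, with 5, 9 and 8 reads in controls and 10, 18 and 17 reads in shSTIL libraries, and was not called (limma adjusted p = 0.0276).

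The aldo-keto reductases among the members, which reduce carbonyl compounds and are induced by NRF2 in many cell types, were nearly absent from the reads. AKR1C1 had 0, 1 and 0 reads in controls and 1, 0 and 1 reads in shSTIL libraries. AKR1C3 had 1, 1 and 1 and then 0, 0 and 1 reads, and AKR1B10 had 0, 1 and 0 and then 0, 0 and 0 reads. None was detectable above 3 reads in any library, so no fold change is given and a difference could not be detected at this depth. Other aldo-keto reductases were well expressed: in the wider list AKR1B1, AKR1A1 and AKR7A2, named after their values were seen, fell by 0.72, 0.33 and 0.71 (limma adjusted p of 6.13e-09, 4.72e-06 and 4.06e-07). AKR1C1 and AKR1C3 share sequence with each other and with AKR1C2. OSGIN1, an oxidative stress induced growth inhibitor, was at 4.58, 4.53 and 4.53 log2 CPM in controls and at 4.24, 4.05 and 4.24 after knockdown, a fall of 0.37 (SE 0.07, limma adjusted p = 0.000482).

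Exact permutation of the 6 library labels in all 20 ways, tested two-sided, gave p = 0.1, the smallest value that 3 against 3 allows, for 35 of the measured members. This value arises whenever the groups do not overlap, so it repeats the count of members without overlap and is no further check. Groups did not overlap for 60.3% of all genes. The 35 include KEAP1, ABCC2 and AKR1C3, which were not called. Of the 32 called members, 22 were called in all 15 alternative fits at an adjusted p below 0.01, 20 as lower and 2, MAFG and ABCC3, as higher. The other 10 (ACSL4, GCLC, GPX1, GPX4, HMOX1, OSGIN1, PRDX5, SOD2, TXNRD1 and TXNRD2) lost the call in at least 1 fit that left out a library. The 15 fits changed the model, scaling, prior count or genes included, or left out 1 library. They do not include stricter thresholds on the size of change, under which 3 or 15 members stayed called. The count of 6 higher members was 2 without shNC 3, 3 without shSTIL 1, 2 without shSTIL 2 and 2 without shSTIL 3.

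The wider pathway list held 126 further genes, of which 117 had a row. Of these 52 were lower and 24 higher, or 44.4% and 20.5%, with a median log2 fold change of -0.17. The shares over all genes were 23.6% lower and 23.5% higher, and 31.4% and 30.5% among those with a mean of at least 1 log2 CPM. The part labelled NRF2 regulators held 11 genes, among them the small MAF genes and the related factors NFE2L1 and NFE2L3. Of these 11, 7 were higher (BTRC, SQSTM1, BACH1, MAFF, MAFK, NFE2L1 and NFE2L3) and 2 lower (RBX1 and DPP3). Of 15 measured glutathione transferases, 10 were lower and 1 higher. Of the 24 measured reductases and transporters linked to NRF2, 15 were lower and 4 higher. Of the 15 measured genes of haem, iron and lipid peroxides, 8 were lower and 2 higher, and of the 16 of NADPH supply, 6 were lower and 3 higher. The 24 other peroxidases, thioredoxins and repair enzymes included 8 lower and 4 higher genes, and the 12 genes of glutathione transport and breakdown included 3 of each. For NADPH supply the shares were 37.5% lower and 18.75% higher, and for the peroxidase part 33.3% and 16.7%. For transport and breakdown they were 25% each. These parts lie nearest the shares over all genes. Differences between these counts were not tested.

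**Figure D4:**
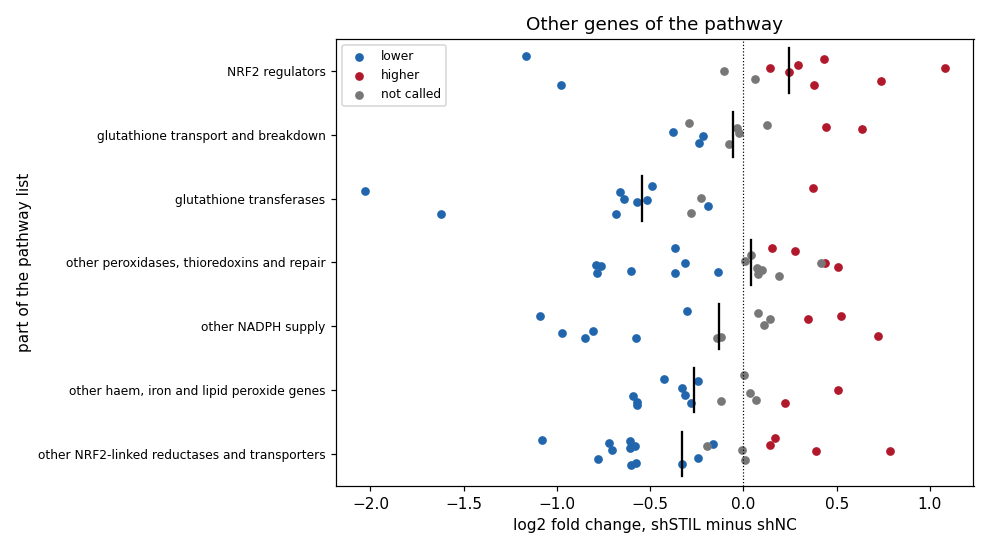
Log2 fold change of shSTIL minus shNC (x axis) of the 99 genes of the wider pathway list with a mean of at least 1 log2 CPM (points), by part of the list (y axis, points spread vertically for legibility), with a black bar at the median of each part. The median is 0.24 for the 11 genes of the part labelled NRF2 regulators and -0.54 for the 12 glutathione transferases drawn.

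Among the wider list, the small MAF proteins rose with MAFG. MAFF was at 5.91, 5.70 and 5.83 log2 CPM in controls and at 6.88, 6.85 and 6.95 after knockdown, a 2.11-fold rise (log2 1.08, SE 0.05, limma adjusted p = 1.15e-09). MAFK was at 5.98, 5.91 and 5.87 and then at 6.57, 6.71 and 6.70 log2 CPM, a 1.67-fold rise (limma adjusted p = 1.73e-08). All 3 small MAF genes were therefore higher in every shSTIL library. SLC7A5, a transporter of large neutral amino acids, was at 9.19, 9.14 and 9.16 and then at 9.96, 9.92 and 9.97 log2 CPM and rose 1.73-fold (limma adjusted p = 2.01e-10). PGLS, 6-phosphogluconolactonase, was at 4.84, 4.66 and 4.74 and then at 5.38, 5.51 and 5.51 log2 CPM and rose 1.65-fold (limma adjusted p = 2.72e-07).

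The falls named from the wider list included a protein with a glutathione transferase domain and a KEAP1 binding peptidase. GSTCD, a glutathione transferase domain protein, was at 5.97, 6.02 and 6.07 and then at 4.43, 4.31 and 4.44 log2 CPM, a fall of 1.62 (SE 0.05, limma adjusted p = 4.02e-11). DPP3, a peptidase that can bind KEAP1, was at 5.94, 5.98 and 6.01 and then at 4.84, 4.72 and 4.87 log2 CPM, a fall of 1.16 (SE 0.05, limma adjusted p = 6.04e-10). GSTT2B was the most variable of the named genes, at 3.46, 3.62 and 2.93 log2 CPM in controls and at 0.01, 2.39 and 1.52 after knockdown. Its fall of 2.03 carried an SE of 0.43 (limma adjusted p = 0.00106).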

How the data were processed

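Total RNA of 6 EJ libraries was sequenced on a BGISEQ-500. The authors used SOAPnuke for filtering, Bowtie2 for alignment to a transcriptome and RSEM for reads per gene, with hg38 named in the submitters' notes and versions not given in the sources used here. The authors deposited unnormalized estimated counts (15957 genes, 4 libraries) and log2 CPM computed with edgeR (15953 genes, all 6 libraries). Recomputing the deposited log2 CPM with edgeR (TMM scaling, prior count 2) gave values within 3.4e-05.

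Because the estimated counts cover 1 control library, the deposited log2 CPM of all genes were fitted with limma 3.58.1 (lmFit, eBayes with trend, R 4.3.3), with no block, Benjamini-Hochberg adjustment over all genes and calls at an adjusted p below 0.01. Fold changes are on the log2 CPM scale with its prior count, which understates those of low genes. Whole reads were recovered from the spacing of low log2 CPM values (87.5% to 87.9% whole within 0.01 reads, at most 0.00692 reads from the deposited estimated counts), rounded and tested with edgeR 4.0.16 (7799 genes called) and DESeq2 1.42.0. Depth was 16214772 to 16901634 reads, and limits of 3 reads cover counting error only. Values in every library were given for each called member. Of the wider list, the 4 largest rises and falls among called genes with a mean of at least 1 log2 CPM were named, except for an item that is not reported here. The members and lists were chosen with earlier results of these data known. The fits were also run on simulated counts, with a far smaller share of changed genes than was called here. That run checked the code and cannot show error rates for these libraries. Gene positions are from GENCODE 29, and promoter sequences from RefSeq.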

Additional observations from a re-analysis of the deposited data

How the results depend on the processing

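No member changed direction while called in the 15 alternative fits, and changes of threshold are counted apart from these fits. In the main fit 32 members and 7509 of all genes were called. Without the mean-variance trend these counts were 25 and 5855, with quantile normalization 30 and 7337, and with DESeq2 31 and 6780. The member count stayed at 32 with median centring (7549 genes called), a prior count of 0.5 (7456) or 5 (7450) and edgeR (7799). It was also 32 among genes with a mean of at least 1 log2 CPM, where 7448 of 11319 genes were called. At an adjusted p below 0.05, 34 members and 8988 of all genes were called. Requiring an absolute log2 fold change above 1 left 3 members (1 higher, 2 lower), 10 genes of the wider list and 951 of all genes. The limma test against a 1.2-fold change left 15 members (2 higher, 13 lower), 43 genes of the wider list and 3317 of all genes. Leaving out 1 library at a time gave 22 to 27 called members (2 to 5 higher, 20 to 22 lower) and 51 to 60 called genes of the wider list. Among all genes of the table, these fits called 4900 (without shSTIL 3) to 5638. These counts also include any gene that the main fit did not call. AKR1C3, at 0 or 1 read, was called only without shSTIL 3 (limma adjusted p = 0.00562, within a range of 0.00562 to 0.432 over its alternatives). Same-numbered libraries did not deviate together (correlations of -0.12, -0.06 and -0.11 over 11319 genes) and 0 of the 6 libraries correlated best with its own number. With 3 libraries per group this cannot show whether same-numbered libraries shared a culture or batch, so a fit with a replicate block was also run. With a replicate block 29 members were called (5 higher, 24 lower), as were 70 genes of the wider list and 6898 of all genes, and STIL fell by 1.99. TXNRD1, PRDX5 and SOD2 lost the call under the block (limma adjusted p of 0.0178, 0.0153 and 0.011). At this depth genes under 3 reads, such as AKR1C1, AKR1C3 and AKR1B10, could not be compared.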

Other observations

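Other genes of the wider pathway list, chosen after their values were seen, add to the account of iron, cystine and NADPH. TFRC, the transferrin receptor that imports iron, rose from 6.49 ± 0.03 to 7.0 ± 0.05 log2 CPM (SD, n = 3 each, limma adjusted p = 7.17e-08), and NCOA4, which carries ferritin to lysosomes, rose by 0.22 (limma adjusted p = 0.000144), while both ferritin chains fell. IREB2, an iron regulatory protein, fell by 0.33 (limma adjusted p = 5.06e-05), and ACO1, the other, differed by 0.03 and was not called (limma adjusted p = 0.484). Of the cystine importer, SLC7A11 fell by 0.22 (limma adjusted p = 0.000446) and its heavy chain SLC3A2, which also serves SLC7A5, rose by 0.64 (limma adjusted p = 1.35e-09). Other sources of NADPH were mixed. Those that fell included IDH1 by 0.58, IDH2 by 0.85, MTHFD1 by 0.81 and MTHFD2 by 0.98 (limma adjusted p of 3.84e-09, 1.46e-08, 1.21e-09 and 8.57e-11). ME3, a mitochondrial malic enzyme, rose by 0.35 (limma adjusted p = 0.00157), and ME2 differed by 0.11 and was not called (limma adjusted p = 0.0227).

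Among regulators of NRF2, also chosen after their values were seen, BACH1, a repressor that competes for the same elements, rose by 0.29 (limma adjusted p = 0.000105), and SQSTM1, which can sequester KEAP1, rose by 0.38 (limma adjusted p = 2.11e-07). CUL3, the scaffold of the ligase, differed by -0.10 and was not called (limma adjusted p = 0.0954), whereas its partner RBX1 fell by 0.98 (limma adjusted p = 7.99e-09). TXNIP, an inhibitor of thioredoxin, had 0, 0 and 0 reads in the shNC libraries and 1, 0 and 3 reads in the shSTIL libraries.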
